A study of Mus musculus with 6 samples.

Results

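The 66 genes described here carry symbols of the families that make, break down and read cyclic AMP (cAMP), or of the regulators of G protein signalling (RGS). They were taken by a pattern of gene symbols from the 16300 genes measured in mouse granulosa cells (GCs). A symbol does not show that a gene acts in cAMP signalling. *Pde6d* encodes a chaperone, *Pde9a* a cGMP-specific enzyme, and *Creb3l1* a membrane-bound factor that is released by cleavage. The group holds 1 gene for the stimulatory G protein alpha subunit (*Gnas*), 7 adenylyl cyclases (*Adcy*), 14 genes named as phosphodiesterases (*Pde*), the 6 catalytic and regulatory subunits of protein kinase A (PKA), 13 A-kinase anchoring proteins (AKAPs), 11 genes of the CREB, CREM and CRTC families, and 14 *Rgs* genes. The last 14 include *Rgs7bp* and *Rgs9bp*, which encode binding partners of RGS proteins. The symbols of all 66 genes matched the GENCODE annotation of GRCm38 by gene identifier.

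In GCs, follicle-stimulating hormone and luteinizing hormone act through receptors coupled to the stimulatory G protein, which switches on adenylyl cyclases. The cAMP that they make binds the regulatory subunits of PKA and releases the catalytic subunits, phosphodiesterases split the cAMP, and AKAPs hold PKA at particular places in the cell. Free catalytic subunits phosphorylate CREB, which binds cAMP response elements with the help of CRTC coactivators, and RGS proteins speed up the switching off of G protein alpha subunits.

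The RNA-seq libraries were made from GCs isolated at estrus from wild type C57BL/6J mice aged 8 to 9 weeks, with the cells of 5 mice pooled in each library. The cells were cultured for 48 h in medium with 10% serum, serum starved for 4 h, and then kept in medium alone (control, 3 libraries) or with 25 nM dihydrotestosterone (DHT), an androgen that is not converted to estrogen, for 24 h (DHT, 3 libraries). The groups follow the treatment characteristic of the labels, which gives control to 3 samples and DHT to 3, although the free text of the labels mentions whole ovary as the source of RNA and DHT in all samples. Values are normalized counts, in which the reads of each gene were scaled by a size factor of the library, and the reads assigned to these 16300 genes summed to between 36111177 and 41928585 per library.

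Of 13 genes fixed as granulosa markers 12 were analysed, and *Foxl2*, the factor that maintains granulosa identity, had 2433 to 2588 normalized counts in control and 2194 to 2301 in DHT. The summed level of these 12 markers ran from 198515 to 209382 in control and from 178908 to 189306 in DHT, and 4 of them (*Foxl2*, *Inha*, *Esr2* and *Kitl*) were lower in DHT. The 7 smooth muscle and pericyte markers summed to 6843 to 10281 in control and 12407 to 14582 in DHT, with 4 higher (*Myh11*, *Acta2*, *Cnn1* and *Cspg4*). The 4 luteal markers summed to 3943 to 5257 and 8046 to 9368, with *Prlr* and *Ptgfr* higher. Of 5 immune markers *Csf1r* was lower, with sums of 500.3 to 574 in control and 381 to 654 in DHT. None of 6 theca and stromal (3963 to 4514 and 3430 to 3929), 4 endothelial (150.4 to 179 and 141 to 199), 7 oocyte (315 to 817 and 43.6 to 590) or 6 surface epithelium markers (3927 to 4420 and 3120 to 3978) passed the test, and the oocyte markers *Zp3* and *Dppa3* were at 0 in DHT replicate 2. The granulosa, luteal, smooth muscle, and theca and stromal sums did not overlap between the groups, and their part in the values of the 66 genes was not tested. In pooled cells such as these, fewer cells of a type and less RNA per cell cannot be told apart. Control replicate 3 lay with the DHT libraries for *Rgs2* and some cAMP-responsive genes outside the 66, and *Rgs2* is given with and without it.

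All 66 genes passed the filter of a mean of at least 10 normalized counts and entered the limma fit of log2(normalized count + 1). With higher and lower meaning a Benjamini-Hochberg adjusted p of at most 0.05 over the 16292 genes tested, 8 of the 66 genes (12.1%) differed between DHT and control. The share among all genes tested was 11.2%. The 4 higher genes were the phosphodiesterase *Pde11a*, the RGS gene *Rgs12*, the transcription factor *Creb3l1* and the anchoring protein *Akap13*. The 4 lower genes were the PKA regulatory subunit *Prkar2b* and the anchoring proteins *Akap5*, *Akap12* and *Akap1*. In each direction the share of members was 6.06%, beside 6.52% of all genes higher and 4.66% lower. With the study's further threshold of an absolute log2 fold change above 1, *Pde11a* alone remained (1.52% of the members, 1.31% of all genes). The 3 DHT values all lay above or all below the 3 control values for 24 members (36.4%), 12 in each direction, beside 30.6% of all genes. These shares of the 66 genes are close to those of all genes tested. With 3 libraries in each group, an exact permutation test of a single gene cannot give a p below 0.1. The study's methods describe 3 pooled samples for each treatment, each from 5 animals, and do not say whether the control and DHT pools were of the same animals. The p-values weigh each difference against the spread between these libraries, after the variance of each gene was drawn toward a trend over all genes tested.

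**Figure D1:**
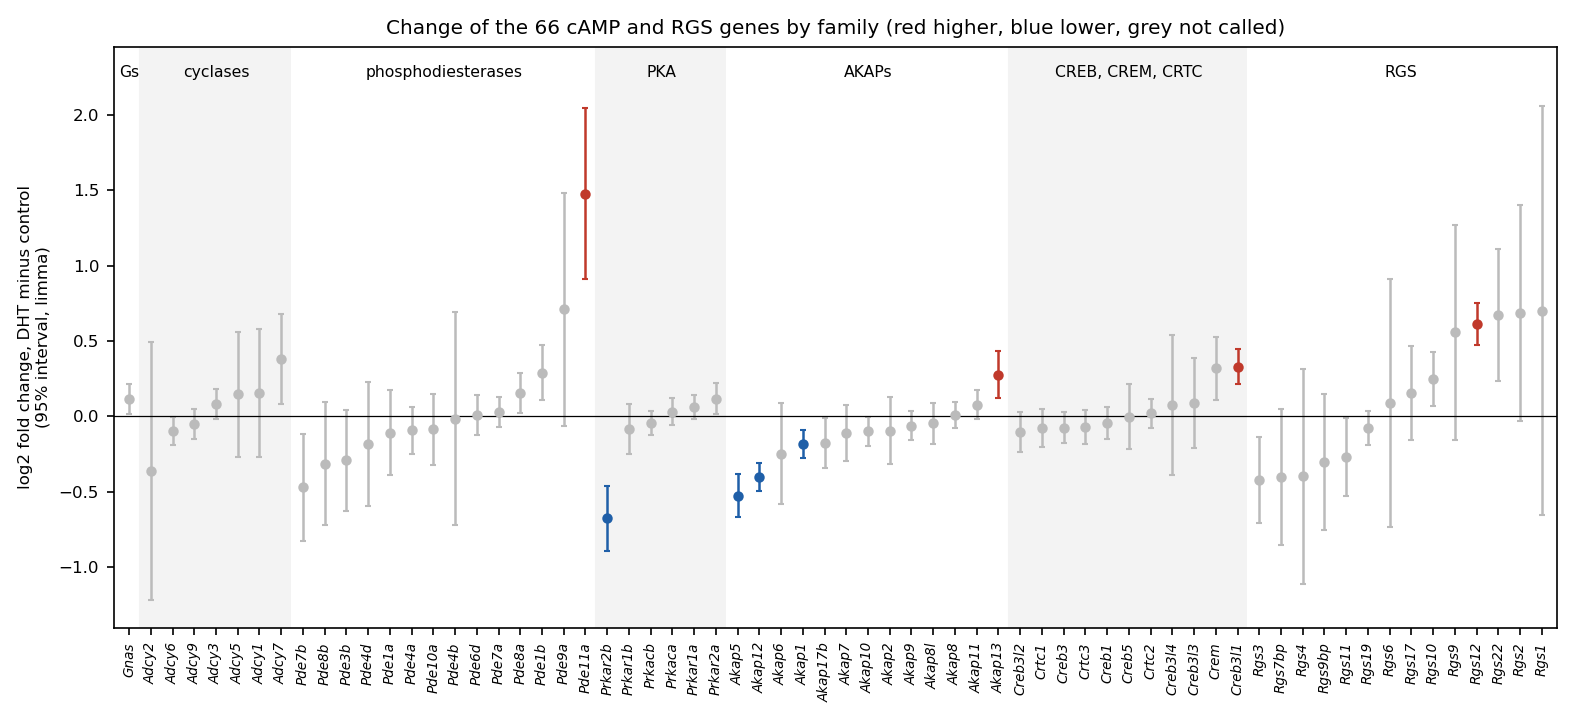
Log2 fold change (DHT minus control, y axis) of the 66 genes by family, with the 95% interval from limma over 3 libraries in each group. Red points mark the 4 genes called higher, blue points the 4 called lower and grey points the 58 not called; *Prkar2b* lies lowest at -0.68 and *Pde11a* highest at 1.48.

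The 58 genes that were not called had log2 fold changes between -0.47 (*Pde7b*) and 0.71 (*Pde9a*). With 1 library left out these end points ran from -0.61 to -0.30 and from 0.43 to 1.03. For 35 of the 58 genes the 95% interval lay within 0.5 on either side of 0 on the log2 scale, so that these data limit their difference to that size. The other intervals were wider, and 14 members had a mean under 100 normalized counts. The median log2 fold change was -0.04 over the members and -0.01 over all genes tested.

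At the entry of the pathway, *Gnas* had 16426, 17916 and 17406 normalized counts in control and 18083, 18735 and 19133 in DHT. Its DHT values were all above control, but the log2 fold change of 0.11 ± 0.04 (SE) did not pass the test in limma (adjusted p = 0.144). *Gnas* is a complex imprinted locus, and 2457 bases of its exons are shared with *Nespas* and *Gm20721* on the other strand. The strand setting of the counting is not given in the sources used here, so that reads of these transcripts cannot be told apart.

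None of the 7 adenylyl cyclase genes was called. Per kb of exon, *Adcy9* (mean over the 6 libraries 627 normalized counts per kb) and *Adcy6* (554) were the main cyclase genes, followed by *Adcy3* (173), and the others were at 2.79 to 18.4. *Adcy9*, a cyclase that is not activated by forskolin in the way its relatives are, had 3484, 3231 and 3241 normalized counts in control and 3171, 3293 and 3139 in DHT, with overlap (log2 fold change -0.05, 95% interval -0.15 to 0.05). *Adcy6*, which calcium inhibits, had 3893, 3739 and 4010 in control and 3673, 3711 and 3525 in DHT. Its groups did not overlap, but the log2 fold change of -0.09 ± 0.04 was not called (adjusted p = 0.195). *Adcy3* had 1027, 1068 and 1053 in control and 1119, 1097 and 1117 in DHT (log2 fold change 0.08 ± 0.05, adjusted p = 0.297). Exons of *Adcy6* and *Adcy3* overlap genes on the other strand (*Gm29331* and *Cenpo*). Of the cyclases at low level, *Adcy7* had the largest fitted difference, 0.38 ± 0.13 on the log2 scale (adjusted p = 0.106). Summed over the family, the level per kb was 1409 ± 32.0 (SD, n = 3) in control and 1365 ± 27.0 in DHT, and the groups overlapped.

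**Figure D2:**
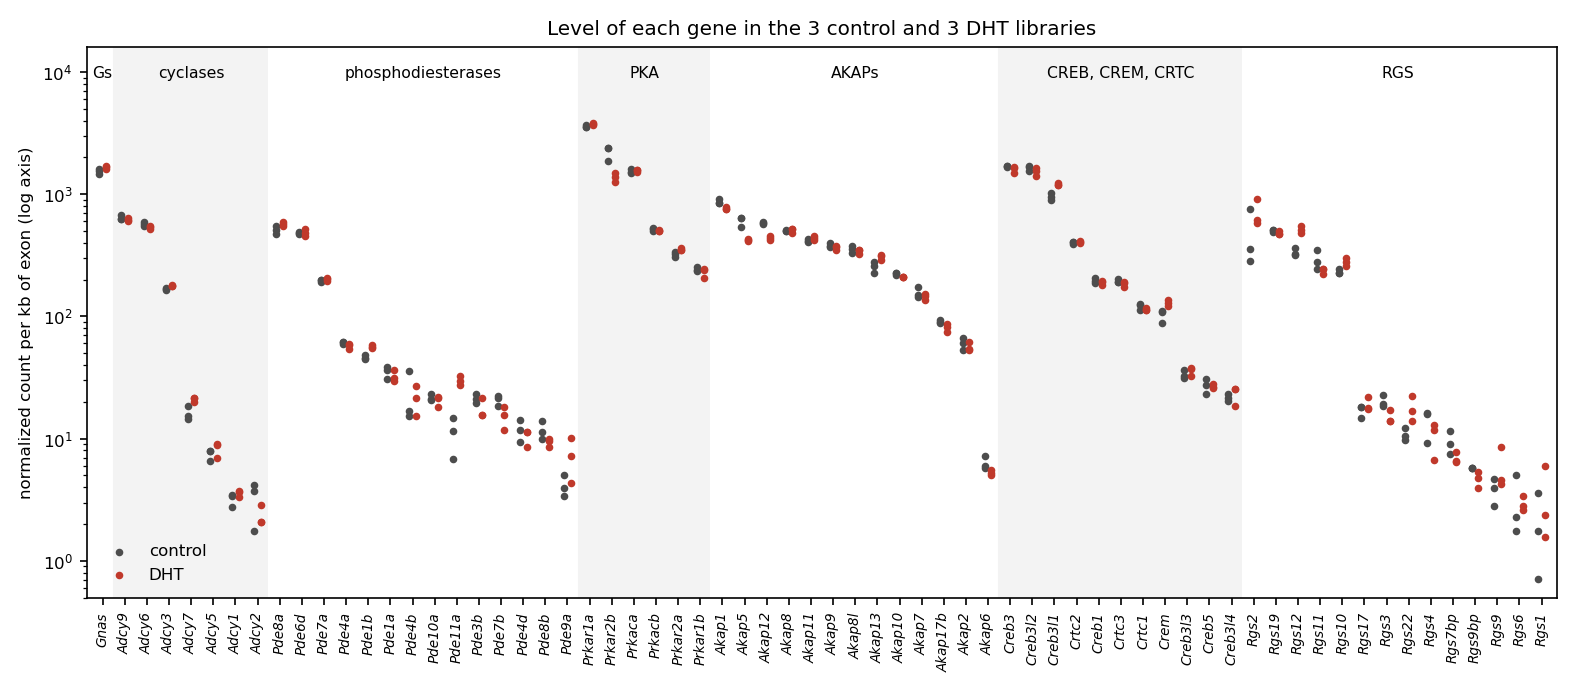
Normalized count per kb of exon (log y axis) of each gene in the 3 control libraries (grey) and the 3 DHT libraries (red), ordered within each family by mean level. *Prkar1a* is at the top with a mean of 3677 per kb, and *Rgs1* at the bottom with 2.65.

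Among the 14 phosphodiesterase genes *Pde11a* was higher and none was lower. *Pde11a*, which encodes an enzyme that splits both cAMP and cGMP (ENSMUSG00000075270, GRCm38 chr2:75989141-76338774, minus strand), had 35.6, 60.4 and 76.9 normalized counts in control and 169, 143 and 153 in DHT. Every DHT library was above every control library. The log2 fold change was 1.48 ± 0.25 (SE), a 2.79-fold difference, with an adjusted p of 0.0062 in limma. The counts are low for this table, since 20.4% of genes had a lower level per kb. Without the intensity trend in limma the adjusted p was 0.053 and the call was lost.

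The phosphodiesterase gene with the highest level was *Pde8a*, which encodes a cAMP-specific enzyme with high affinity, at a mean of 541 normalized counts per kb. It had 1919, 2241 and 2052 normalized counts in control and 2220, 2306 and 2382 in DHT, and the groups overlapped (log2 fold change 0.16 ± 0.06, adjusted p = 0.138). With 1 library left out its log2 fold change ran from 0.10 to 0.21 (adjusted p between 0.048 and 0.340 in limma). It passed the test only without control replicate 2 (0.21, adjusted p = 0.048). *Pde6d* (484 per kb) carries a phosphodiesterase name but encodes a chaperone of prenylated proteins, and its log2 fold change was 0.01 ± 0.06 (adjusted p = 0.943). *Pde7a*, also cAMP-specific, was at 199 per kb with 1494, 1551 and 1525 normalized counts in control and 1610, 1557 and 1509 in DHT. The other 11 genes lay between 5.66 (*Pde9a*, cGMP-specific) and 59.2 (*Pde4a*) per kb.

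*Pde1b*, a calmodulin-dependent phosphodiesterase, came nearest to the threshold from above. It had 241, 261 and 247 normalized counts in control and 298, 304 and 315 in DHT, without overlap, and a log2 fold change of 0.29 ± 0.08 (adjusted p = 0.0514). It passed with a minimum mean of 50 (adjusted p = 0.042), with quantile normalization (0.040) and without the intensity trend (0.0396). The cAMP-specific *Pde7b* was at 277, 267 and 231 in control and 147, 226 and 193 in DHT (log2 fold change -0.47 ± 0.16, adjusted p = 0.0946). With 1 library left out its log2 fold change ran from -0.61 to -0.30, and it was not called.

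When *Pde6d* and *Pde9a* are left out, the summed level per kb of the genes whose enzymes split cAMP was 972 ± 46.7 (SD, n = 3) in control and 1041 ± 12.3 in DHT, a difference of 7.12% with every DHT library above control. *Pde8a* made up 52.6% ± 1.81 of this sum in control and 54.7% ± 1.28 in DHT, with overlap. *Pde11a* made up 1.13% ± 0.38 in control and 2.86% ± 0.271 in DHT. The gene with the 2.79-fold difference was therefore a small part of the family's transcripts in both groups.

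Of the 6 PKA genes *Prkar2b* was lower and none was higher. *Prkar2b* encodes the regulatory subunit RIIbeta, long known in GCs as a subunit that follicle-stimulating hormone and cAMP induce (ENSMUSG00000002997, GRCm38 chr12:31958476-32061296, minus strand). It had 8704, 6844 and 8725 normalized counts in control and 5477, 5047 and 4610 in DHT. The highest DHT value was below the lowest control value. The log2 fold change was -0.68 ± 0.10 (SE), with an adjusted p of 0.0025 in limma.

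The other regulatory subunit genes were not called. *Prkar1a*, which encodes RIalpha, had 15334, 15276 and 16035 normalized counts in control and 16016, 16285 and 16374 in DHT, and the groups overlapped slightly (log2 fold change 0.06 ± 0.04, adjusted p = 0.332). *Prkar2a*, the gene of RIIalpha, had 1970, 2153 and 2084 in control and 2213, 2292 and 2230 in DHT, without overlap (0.12 ± 0.05, adjusted p = 0.136). *Prkar1b*, the gene of RIbeta, had 968, 917 and 897 in control and 784, 915 and 932 in DHT (-0.08 ± 0.07, adjusted p = 0.534). Part of its exons lies on the same strand as exons of *Gm15672*, and reads there may be split or dropped by the counting.

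Neither catalytic subunit gene was called. *Prkaca* had 3777, 3968 and 3696 normalized counts in control and 3798, 3937 and 3955 in DHT, and its 95% interval ran from -0.06 to 0.12 on the log2 scale. *Prkacb* had 4418, 4544 and 4661 in control and 4411, 4446 and 4349 in DHT, with an interval from -0.13 to 0.04. For each gene the groups overlapped.

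Among the regulatory subunit transcripts, *Prkar2b* made up 36.7%, 31.3% and 35.9% of the summed level per kb in the control libraries and 26.0%, 24.0% and 22.4% in the DHT libraries. All DHT shares lay below all control shares, with means of 34.6% ± 2.91 and 24.1% ± 1.84 (SD, n = 3). The share of *Prkar1a* was 56.5% ± 2.30 in control and 65.7% ± 1.38 in DHT, and that of *Prkar2a* 5.10% ± 0.472 and 6.16% ± 0.116, both without overlap. These shares sum to a whole, so that a lower share of one gene raises those of the others. The summed regulatory level per kb was 6382 ± 351 in control and 5718 ± 63.0 in DHT, a difference of -10.4% with no overlap between the groups. The summed catalytic level was 2050 ± 54.1 in control and 2068 ± 33.5 in DHT. The ratio of the regulatory to the catalytic sum was 3.12 ± 0.249 in control and 2.77 ± 0.0663 in DHT, and the groups overlapped because control replicate 2 was at 2.83 and DHT replicate 1 at 2.84.

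**Figure D3:**
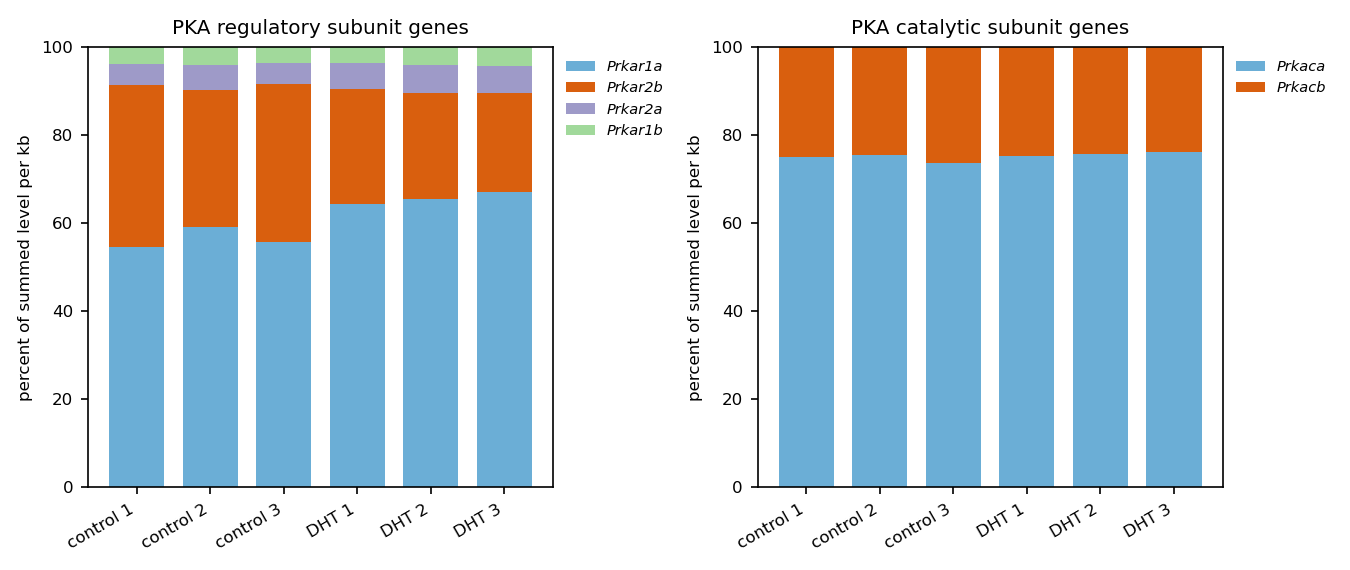
Percent of the summed normalized count per kb (y axis) taken by each PKA regulatory subunit gene (left) and each catalytic subunit gene (right) in the 6 libraries. *Prkar2b* takes 31.3% to 36.7% in control and 22.4% to 26.0% in DHT, while *Prkaca* takes a mean of 74.7% of the catalytic sum in control and 75.7% in DHT.

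The promoters of these 2 regulatory subunit genes are shown because *Prkar2b* was lower and *Prkar1a*, the highest of the 66 genes per kb of exon, was not called. They are the RefSeq promoter windows of GRCm38.p6, from 250 bases before to 50 bases after an annotated start, written 5′ to 3′ on the strand of the gene, and the first 2 of 4 chosen for printing after the values were seen. Capitals mark TGACG, the core of the cAMP response element, and AGAACA, a single arm of the androgen response element, on either strand. The *Prkar2b* window, 1 of 2 for that gene, lies at chr12:32061228-32061527 on the minus strand. Its start site is 19 bases inside the GENCODE gene, in an exon. The window has a GC content of 75.0% and holds neither motif, and the other window of the gene holds neither.
Prkar2b: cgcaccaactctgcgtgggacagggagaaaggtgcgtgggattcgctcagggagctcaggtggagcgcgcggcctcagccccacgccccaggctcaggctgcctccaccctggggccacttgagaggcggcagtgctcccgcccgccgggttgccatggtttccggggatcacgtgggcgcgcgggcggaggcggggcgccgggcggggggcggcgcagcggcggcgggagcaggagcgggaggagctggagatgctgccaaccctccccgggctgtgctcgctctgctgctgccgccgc
The *Prkar1a* window, at chr11:109650612-109650911 on the plus strand, is 1 of 6 for that gene and was taken because it holds the full element. Its start site lies 1457 bases inside the gene, in an intron of longer transcripts and 59 bases from the nearest annotated transcript start. It holds the full element TGACGTCA close to its end and has 1 further core.
Prkar1a: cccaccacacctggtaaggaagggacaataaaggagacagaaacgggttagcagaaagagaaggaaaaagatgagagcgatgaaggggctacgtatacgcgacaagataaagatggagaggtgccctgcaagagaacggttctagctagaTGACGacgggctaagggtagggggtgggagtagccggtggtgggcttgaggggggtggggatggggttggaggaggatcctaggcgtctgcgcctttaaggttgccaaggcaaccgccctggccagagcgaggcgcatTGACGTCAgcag

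Over all members, RefSeq promoter windows were found for 53 of the 66 genes (99 windows of 32851). The full element TGACGTCA, searched on both strands, was in 3.03% of the members' windows, those of *Prkar1a* and *Creb5*, and in 1.79% of all windows. The core TGACG, which the full element contains, was in 28.3% of the members' windows and 20.8% of all windows. AGAACA was in 16.2% and 19.0%. The palindromic androgen response element, made of inverted copies of AGAACA 3 bases apart, was in 0 of the 99 windows and in 3 of the 32851. A match is a run of letters, not a bound site.

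Of the 13 AKAP genes 3 were lower and 1 was higher, beside 4.66% lower and 6.52% higher among all genes tested. Fitted changes were negative for 10 of the 13, beside 8337 of the 16292 genes tested, and the median log2 fold change was -0.10 against -0.01. *Akap5* encodes a scaffold at the plasma membrane that binds PKA and calcineurin (ENSMUSG00000021057, GRCm38 chr12:76324891-76334153, plus strand). It had 4347, 3702 and 4374 normalized counts in control and 2928, 2864 and 2815 in DHT, without overlap. Its log2 fold change was -0.53 ± 0.06 (SE), with an adjusted p of 0.0010 in limma.

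*Akap12*, the gene of gravin, which anchors PKA and protein kinase C near beta adrenergic receptors, lies at GRCm38 chr10:4266380-4359470 on the plus strand (ENSMUSG00000038587). It had 3815, 3725 and 3659 normalized counts in control and 2830, 2933 and 2721 in DHT. The groups were far apart for their spread, and the log2 fold change was -0.40 ± 0.04 (adjusted p = 0.00046). *Akap1* places PKA on the outer mitochondrial membrane and lies at GRCm38 chr11:88830792-88864586 on the minus strand (ENSMUSG00000018428). It had 3744, 3705 and 3983 in control and 3320, 3417 and 3342 in DHT, a smaller log2 fold change of -0.18 ± 0.04 (adjusted p = 0.022). This call was lost when any 1 of the DHT libraries was left out (adjusted p between 0.065 and 0.081) and without the intensity trend (0.094).

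*Akap13*, a large scaffold protein (ENSMUSG00000066406, GRCm38 chr7:75455534-75754609, plus strand), went the other way. It had 4778, 5376 and 5801 normalized counts in control and 6540, 6684 and 6055 in DHT. No values overlapped, and the log2 fold change was 0.28 ± 0.07 (adjusted p = 0.034). Its call was the least stable of the 8. It was lost on leaving out control replicate 1 (adjusted p = 0.061), control replicate 2 (0.080) or any DHT library (0.054 to 0.13), and without the intensity trend (0.14).

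The remaining 9 AKAP genes had log2 fold changes between -0.25 (*Akap6*) and 0.08 (*Akap11*), and for 8 of these 9 the 95% interval lay within 0.5 on either side of 0. With 1 library left out the end points ran from -0.31 to -0.15 and from 0.05 to 0.11. *Akap8*, a nuclear anchoring protein, had 4352, 4383 and 4301 in control and 4472, 4457 and 4191 in DHT. *Akap9*, which anchors PKA at the Golgi and centrosome, had 8043, 7919 and 8489 in control and 8043, 7915 and 7493 in DHT. *Akap2* shares 6891 bases of exon with *Pakap* on the same strand, so that its counts are uncertain. The summed AKAP level per kb was 4498 ± 137 (SD, n = 3) in control and 4080 ± 88.0 in DHT, which differ by -9.29% without overlap. This sum holds the 3 genes called lower, so that it is not a result apart from those calls. Per kb, *Akap1* was at 868 ± 34.3 in control and 765 ± 11.5 in DHT and remained the highest AKAP gene, while *Akap5* went from 607 ± 55.7 to 420 ± 8.27 and *Akap12* from 578 ± 12.1 to 438 ± 16.5.

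**Figure D4:**
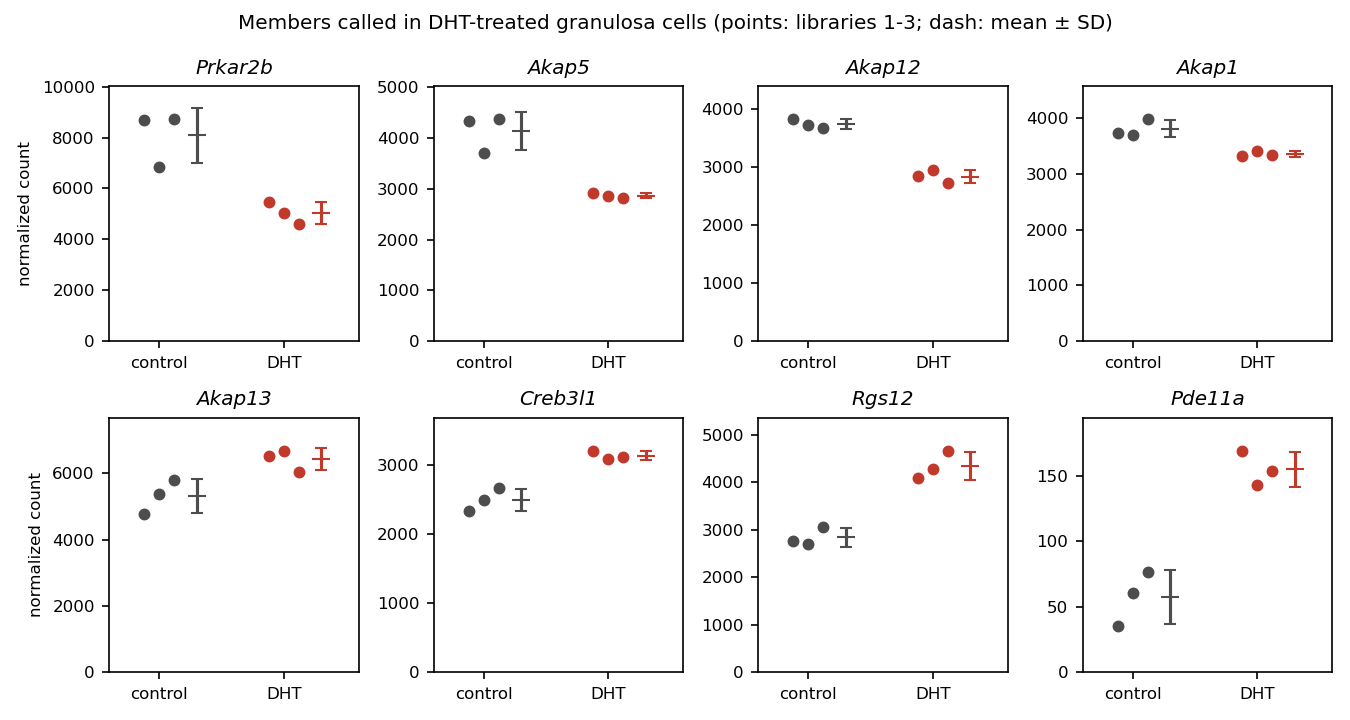
Normalized count (y axis, from 0) of the 8 called genes, with points for the 3 control libraries (grey) and the 3 DHT libraries (red) and a dash with bars for the mean ± SD of each group. In all 8 panels the groups do not overlap; *Prkar2b* spans 6844 to 8725 in control and 4610 to 5477 in DHT.

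In the CREB, CREM and CRTC families 1 of 11 genes was called. *Creb3l1* encodes a membrane-bound factor of the endoplasmic reticulum that is released by cleavage (ENSMUSG00000027230, GRCm38 chr2:91982328-92024502, minus strand). It had 2332, 2490 and 2659 normalized counts in control and 3203, 3085 and 3111 in DHT. The lowest DHT value was above the highest control value, and the log2 fold change was 0.33 ± 0.05 (adjusted p = 0.0037). Its relatives *Creb3* (1645 per kb) and *Creb3l2* (1587 per kb) had the highest levels per kb of the family and overlapped between groups, with log2 fold changes of -0.08 ± 0.05 and -0.10 ± 0.06. *Creb3* shares exon sequence with *Tln1* and *Gba2* on the other strand.

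The classical cAMP-responsive factor *Creb1* had 2675, 2557 and 2812 normalized counts in control and 2634, 2664 and 2502 in DHT, with a 95% interval of the log2 fold change from -0.15 to 0.06. The coactivator genes *Crtc1*, *Crtc2* and *Crtc3* had log2 fold changes of -0.08, 0.02 and -0.07. *Crem*, which encodes activators and the cAMP-inducible repressor ICER, had 523, 652 and 646 in control and 799, 710 and 755 in DHT. Its groups did not overlap, and its log2 fold change of 0.32 ± 0.09 lay just above the threshold (adjusted p = 0.0586). It passed in DESeq2 (adjusted p = 0.024) and in limma without control replicate 3 (0.041). The counts do not separate ICER from the longer *Crem* transcripts.

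Of the 14 *Rgs* genes *Rgs12* was higher and none was lower. *Rgs12* encodes a large protein that acts on alpha subunits of the Gi family through an RGS domain and a GoLoco motif (ENSMUSG00000029101, GRCm38 chr5:34949445-35039644, plus strand). It had 2763, 2698 and 3059 normalized counts in control and 4090, 4285 and 4662 in DHT. Every DHT library was well above control, with a log2 fold change of 0.61 ± 0.06 (a 1.53-fold difference) and an adjusted p of 0.000445 in limma, the smallest among the 66 genes. Of its exons, 467 bases overlap *Gm43791* on the other strand.

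*Rgs2*, which acts mainly on the Gq family, had the highest level per kb of the *Rgs* genes over the 6 libraries (mean 583 normalized counts per kb). In control its mean of 465 per kb was below that of *Rgs19* (507), and in DHT the means were 700 and 481. *Rgs2* had 1035, 1294 and 2736 normalized counts in control and 3311, 2209 and 2100 in DHT. Control replicate 3 lay above 2 of the 3 DHT libraries, so that the groups overlapped and the log2 fold change of 0.69 ± 0.32 was not called (adjusted p = 0.217). Without control replicate 3 it was 1.10 with an adjusted p of 0.0041. *Rgs19*, a small protein that acts on the Gi family, had 1145, 1143 and 1103 in control and 1120, 1052 and 1044 in DHT (-0.08 ± 0.05).

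Promoter windows of *Rgs12* and *Rgs2* are shown with the same capitals. *Rgs12* was the called *Rgs* gene, and *Rgs2* passed the test only when control replicate 3 was left out. The *Rgs12* window, at chr5:34998828-34999127 on the plus strand, is the one of 2 with matches. Its start site coincides with an annotated transcript start in an exon 49633 bases inside the gene, and it holds 1 core of the cAMP response element and 2 single arms of the androgen response element.
Rgs12: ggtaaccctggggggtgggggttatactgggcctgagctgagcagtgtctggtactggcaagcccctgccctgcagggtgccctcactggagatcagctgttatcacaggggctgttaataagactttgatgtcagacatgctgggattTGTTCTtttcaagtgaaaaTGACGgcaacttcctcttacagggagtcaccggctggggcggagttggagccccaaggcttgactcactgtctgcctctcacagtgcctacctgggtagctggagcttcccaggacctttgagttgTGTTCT
The *Rgs2* window, at chr1:144004100-144004399 on the minus strand, has its start site 12 bases inside the gene in an exon and holds 2 cores of the cAMP response element.
Rgs2: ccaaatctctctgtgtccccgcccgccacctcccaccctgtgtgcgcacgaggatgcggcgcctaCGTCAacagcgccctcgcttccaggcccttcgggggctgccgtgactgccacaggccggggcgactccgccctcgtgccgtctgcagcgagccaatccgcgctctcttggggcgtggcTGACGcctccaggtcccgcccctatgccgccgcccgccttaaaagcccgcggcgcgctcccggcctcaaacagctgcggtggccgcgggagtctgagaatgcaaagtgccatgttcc

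The 14 *Rgs* genes together were more scattered than the members at large, with a median absolute log2 fold change of 0.40, against 0.13 for all members, and a median SE of 0.20 against 0.08. Of the 14 genes 7 had a mean under 100 normalized counts. *Rgs22* had 69.3, 59.5 and 55.6 in control and 79.3, 125 and 94.7 in DHT, without overlap (log2 fold change 0.67 ± 0.19, adjusted p = 0.0589). It passed in DESeq2 (0.042) and in limma without DHT replicate 1 (0.042). *Rgs3* was at 244, 206 and 200 in control and 152, 151 and 184 in DHT (-0.42 ± 0.13, adjusted p = 0.0665), and *Rgs10* at 390, 421 and 386 in control and 442, 472 and 510.4 in DHT (0.25 ± 0.08, adjusted p = 0.0786). The remaining 8 genes lay between -0.40 (*Rgs7bp*) and 0.70 (*Rgs1*), and with 1 library left out these end points ran from -0.55 to -0.24 and from 0.16 to 1.22.

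In 4 members the SD over the control libraries was at least 40% of the mean: *Rgs1*, *Rgs2*, *Rgs6* and *Pde4b*. Among the controls, all 4 were highest in replicate 3, as were 30 of the 66 genes. *Pde4b*, whose cAMP-specific enzyme is itself induced by cAMP in many cells, had 161, 178 and 375 normalized counts in control and 286, 228 and 161 in DHT. Of 20 cAMP-responsive genes outside the 66, control replicate 3 was the highest control for 11, the lowest for 4 and between the others for 5. The 3 that follow were picked for a wide gap after their values were seen, and *Fos*, with 8644, 10971 and 5990 in control, was lowest in that library. *Nr4a1*, an orphan nuclear receptor gene, had 1950, 2546 and 10385 in control and 9911, 7263 and 6431 in DHT. *Nr4a3* had 24.7, 19.5 and 427 in control and 415, 212 and 204 in DHT. *Sik1*, the gene of a kinase that restrains CRTC, had 1534, 1817 and 4144 in control and 4357, 3368 and 3035 in DHT. None of these 3 was called (adjusted p = 0.243, 0.218 and 0.241), and control replicate 3 was above 2 or all of the DHT libraries in each. The cause of this library's values was not tested.

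**Figure D5:**
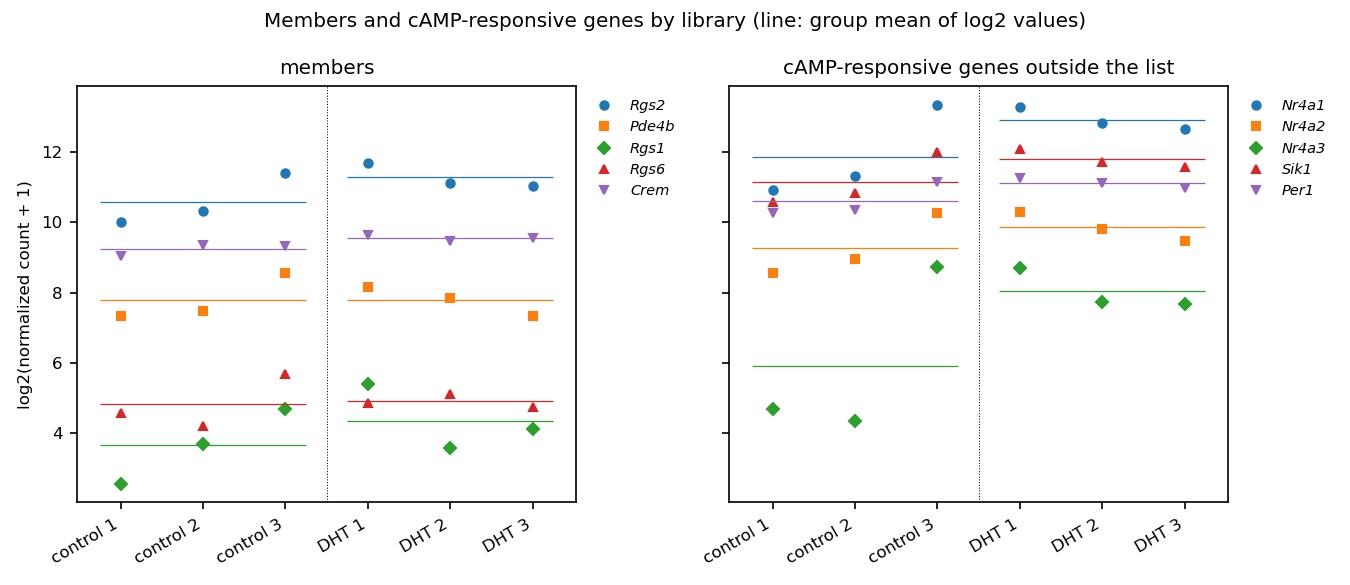
Log2(normalized count + 1) (y axis) in each library of 5 of the 66 genes (left) and of 5 cAMP-responsive genes outside them (right), with lines at the group mean of the log2 values. Control 3 lies above the other controls for *Rgs2*, *Pde4b*, *Rgs1* and *Rgs6* but not for *Crem*; the genes on the right were picked because they show this order, which 11 of 20 such genes had.

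The rest of the pathway was read in the same fit, in which 6.52% of all genes tested were higher and 4.66% lower. Of 9 receptors coupled to the stimulatory G protein that were analysed, 1 was higher and none lower: *Ptger2*, the EP2 receptor for prostaglandin E2, had 826, 808 and 774 normalized counts in control and 1072, 1030 and 1069 in DHT (log2 fold change 0.40 ± 0.05, adjusted p = 0.0015). *Fshr*, the receptor of follicle-stimulating hormone, had 140, 143 and 168 in control and 159, 143 and 135 in DHT (-0.04 ± 0.12). *Lhcgr*, the receptor of luteinizing hormone, had 32.7, 12.1 and 63.9 in control and 68.5, 74.2 and 95.8 in DHT. Its values did not overlap, but the log2 fold change of 1.38 ± 0.48 was not called (adjusted p = 0.110).

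Of 11 other alpha subunit genes 1 was higher, *Gna14* of the Gq family (1.12 ± 0.19, adjusted p = 0.0067), and none was lower. None of 6 genes of receptor desensitisation, 11 CREB partners or 3 further phosphodiesterase genes passed the test. Of 9 RGS-related genes outside the 66, *Gnb5*, the beta subunit that pairs with RGS proteins of the R7 type, was higher (0.21 ± 0.06, adjusted p = 0.0437).

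The 12 genes of other cAMP effectors, PKA inhibitors and cAMP export held 4 higher and 3 lower genes. Among all genes tested 6.52% were higher and 4.66% lower. The 4 higher genes included the PKA inhibitors *Pkia* (0.44 ± 0.12, adjusted p = 0.0497) and *Pkig* (0.30 ± 0.06, adjusted p = 0.0122), and the others were *Bves* and *Cnga1*. *Pkig* had 1371, 1344 and 1279 normalized counts in control and 1512, 1686 and 1724 in DHT. Lower genes included *Rapgef4*, the exchange factor EPAC2 that cAMP activates directly (-0.59 ± 0.12), and the cAMP exporter *Abcc4* (-0.37 ± 0.07). Among 20 genes that respond to cAMP, PKA and CREB in GCs or other cells, 2 were higher and 3 lower, beside the same shares of all genes tested. *Sgk1* (0.77 ± 0.06) and *Cyp11a1*, the side-chain cleavage enzyme of progesterone synthesis (0.49 ± 0.09), were higher, and *Btc*, *Pgr* (-1.42 ± 0.27) and *Inha* (-0.61 ± 0.08) were lower.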

How the data were processed

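RNA-seq was read from 6 libraries, 3 control and 3 DHT. The authors trimmed reads with Trimmomatic 0.36, mapped them to GRCm38 with STAR 2.5.2b and counted exon reads with featureCounts of Subread 1.5.2; the annotation release and strand setting are not given in the sources used here. The deposited signal is the read count divided by a DESeq2 size factor, and all values were whole multiples of 1 step per library (tolerance 1e-06 reads). The deposited fold changes and p-values of the authors were not used.

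Values were fitted as log2(value + 1) with limma 3.58.1 (R 4.3.3) with an intensity trend and treatment as the only term, over the 16292 genes whose mean reached 10, with Benjamini-Hochberg adjustment over all of them. A fold change on this scale understates that of low genes. Levels between genes used the union of exons of GENCODE M21. Alternatives were pseudocounts of 0.5 and 8, no filter, a minimum mean of 50, quantile normalization, TMM, no trend, edgeR 4.0.16 and DESeq2 1.42.0 on the recovered reads, the replicate block, and each library left out. Genes named one by one were those called or with an absolute log2 fold change above 1, *Gnas* and the PKA genes, the 3 of each family with the highest level per kb, the 3 nearest above the threshold, and up to 3 per pathway list with *Fshr* and *Lhcgr*; others named were chosen after their values were seen, and 1 gene of a pathway list is not reported here. The members and lists were chosen with earlier results of these data known. The limma, edgeR and DESeq2 fits were tested on simulated counts.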

Additional observations from a re-analysis of the deposited data

How the results depend on the processing

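Of the 8 calls, *Prkar2b*, *Akap5*, *Akap12*, *Creb3l1* and *Rgs12* passed in all 16 alternatives, *Pde11a* in 15, *Akap1* in 11 and *Akap13* in 9. Between 3 and 6 members were higher and 3 or 4 lower under every alternative, and edgeR called the same 8 genes as limma. The count past both thresholds was 1, but 0 without the intensity trend and 1 to 2 over the fits with 1 library left out, with *Rgs2* added without control replicate 3. Of the 66 members 8, none of them called, had the other sign in at least 1 alternative, among them *Rgs6* (-0.21 to 0.52), *Pde4b* (-0.24 to 0.37) and *Creb5* (-0.11 to 0.09). *Pde6d*, at 0.01 on the log2 scale, ran from -0.040 (without DHT replicate 3) to 0.051 with 1 library left out and was -0.0067 without control replicate 3. Over all genes 1823 calls became 804 without the trend, and 970 and 931 without DHT replicates 2 and 3. Same-numbered libraries did not deviate together (r = 0.0058, 0.067 and -0.24), so that they were not taken as pairs; with the replicate block 990 genes, 3 higher and 3 lower members were called, without *Akap1* and *Akap13* (adjusted p = 0.084 and 0.088). Low counts limit the 14 members with a mean under 100, in which a difference may not have been detectable.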
